A study of Mus musculus with 2 samples.

Results

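The genes described are 8 transcription factors and cofactors of the third pharyngeal pouch, Foxn1, Pax1, Pax9, Six4, Eya1, Tbx1, Hoxa3 and Gcm2. They were chosen by name, and every non-control probe whose gene name or accession on the array is that of a member was taken, which gave 11 probes of 41174 in all and 8 genes of 19502. The study asked how gene expression differs between mouse fetal thymic stromal cells kept in 3 dimensions and the same kind of cells kept flat. RNA was compared on 2 two-colour Agilent arrays after 72 h in reaggregation thymus organ culture (RTOC, labelled with Cy5), in which dissociated cells are packed into a pellet on a filter, or in 2D culture in a dish (2D, Cy3). Cells of both cultures came from fetal thymus lobes of C57BL/6 mice that had been held in fetal thymus organ culture with 1.35 mM deoxyguanosine, an agent that depletes thymocytes, so that the 2D control shares this treatment. One array holds cells of E14.5 fetuses after 8 days of organ culture and the other cells of E15.5 fetuses after 9 days, so that stage, culture time and array cannot be told apart. The labels describe the arrays as independent experiments, and both had RTOC in Cy5, so that a dye effect on a probe and the difference between cultures cannot be told apart.

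The third pharyngeal pouch is the part of the embryonic foregut endoderm from which the thymus and the parathyroid glands grow. In the pouch, the homeobox gene Hoxa3 acts upstream in a network with the paired-box genes Pax1 and Pax9, the transcriptional cofactor and phosphatase Eya1, and its homeobox partner Six4, and loss of several of these genes in mice impairs thymus formation. Tbx1 is a T-box gene needed for segmentation of the pharynx and a main gene of the DiGeorge deletion, Foxn1 drives differentiation of the thymic epithelium, and Gcm2 is required for the parathyroid.

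Each probe on the array is 60 bases long, and several members rest on more than 1 probe. The first 30 bases of the probes of Foxn1 and Eya1 and of the brighter Pax1 probe, and the whole second Pax1 probe, are shown. The probes of Pax1 and those of Eya1 differed in how far their signal changed between cultures. The single Foxn1 probe is given beside them. Capitals mark an ATG at the 5′ end.
Foxn1: agctcactcgaacttcagctctcgagcgtg
Pax1, brighter probe: tcaattgttgtagtcataaacatattactg
Pax1, second probe: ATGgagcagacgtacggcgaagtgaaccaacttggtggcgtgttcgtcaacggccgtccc
Eya1, brighter probe: aaatggccagtgttgagacctcttcatttg
Eya1, second probe: atccagtgaaagtaagccatgagaatgttc
The brighter Pax1 probe holds 35.0% G and C and the second 60%, and both Eya1 probes lie between them, at 40.0% and 43.3%. The position of a probe within its transcript was not analysed here.

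Of the 8 members, 7 were well above background in all 4 channels, and 4 of these 7 were higher in RTOC than in 2D on both arrays and passed the limma threshold of an adjusted p of 0.05. Foxn1, Pax1, Eya1 and Pax9 rose between 3.40-fold and 6.30-fold. Six4, Hoxa3 and Tbx1 did not pass, no member fell, and Gcm2 was not measurable. Of all 13497 genes tested with their brightest probe, 28.1% passed in either direction, 15.4% higher and 12.7% lower in RTOC. The median log2 ratio of the members tested was 1.76, beside 0.00 over all genes tested. Levels below are quantile-normalized signals (intensities), which can be compared between channels for a given probe but not between probes. Where the values of the cultures are said to overlap or not, this describes 2 values per culture and carries no test. The share of all genes tested whose values did not overlap is not given.

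Foxn1, the forkhead factor on which the thymic epithelial programme depends, gave a 2D signal of 442 and an RTOC signal of 2830 at E14.5. At E15.5 it gave 552 in 2D and 3420 in RTOC. Both RTOC values were far above both 2D values, and the arrays gave nearly equal log2 ratios of RTOC over 2D, 2.68 and 2.63. The mean ratio on the log2 scale was 2.65 ± 0.03 (SD, n = 2 arrays), a 6.30-fold difference with an SE of 0.25 on the log2 scale (limma, adjusted p = 0.00261). Of the 13497 genes tested, 3.25% had a higher mean ratio than Foxn1. In bulk RNA, fewer cells of a type and less RNA per cell cannot be told apart.

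Pax1, which is expressed in the pouch endoderm and later in the thymic epithelium, gave values that ran with those of Foxn1. Its brighter probe, printed at 10 spots on each array, read 8756 in 2D and 53519 in RTOC at E14.5. At E15.5 it read 9393 in 2D and 60948 in RTOC. The groups did not overlap, and the log2 ratios were 2.61 and 2.70. The single spots ranged from 2.55 to 2.67 at E14.5 and from 2.58 to 2.75 at E15.5 on the log2 scale (SD 0.04 and 0.06). Spots of an array read the same labelled RNA, so their spread is not that between cultures or experiments. The mean log2 ratio of 2.65 ± 0.06 (SD, n = 2 arrays) was 6.30-fold (SE 0.25, adjusted p = 0.00261 by limma).

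The second Pax1 probe, which opens with ATG, was dimmer and differed less between cultures. It read 182 in 2D and 273 in RTOC at E14.5, and 132 in 2D and 339 in RTOC at E15.5. Both RTOC values lay above both 2D values. Its mean log2 ratio was 0.98 ± 0.55 (SD, n = 2 arrays) and did not pass the threshold (limma, adjusted p = 0.0611, 95% interval 0.23 to 1.73), so the size of the Pax1 difference depended on the probe. It passed when only probes well above background in all 4 channels were tested (limma, adjusted p = 0.0425) and without quantile normalization (0.0471), and its mean log2 ratio was 0.41 with normexp and loess.

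Eya1, a coactivator of Six4 and its relatives, had a signal of 1337 in 2D and 5933 in RTOC at E14.5. At E15.5 the same probe read 2841 in 2D and 9936 in RTOC. The RTOC values again lay above both 2D values, with log2 ratios of 2.15 and 1.81. The mean log2 ratio of 1.98 ± 0.24 (SD, n = 2 arrays) was 3.94-fold (SE 0.26, adjusted p = 0.00576 by limma). The second Eya1 probe read 129 and 164 in 2D at E14.5 and E15.5, and 227 and 287 in RTOC. Its log2 ratio was 0.81 on both arrays, higher in RTOC on each, but it did not pass the threshold (limma, adjusted p = 0.0614). It passed among probes well above background in all 4 channels (limma, adjusted p = 0.044), and its mean was 0.21 with normexp and loess.

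Pax9, the close paralogue of Pax1 needed for pouch outgrowth, read 933 in 2D and 4342 in RTOC at E14.5. At E15.5 it read 2796 in 2D and 6931 in RTOC. The groups did not overlap, but the difference was larger at E14.5 (log2 ratio 2.22) than at E15.5 (1.31), and the change of the 2D signal between arrays was larger than that of RTOC. The mean log2 ratio of 1.76 ± 0.64 (SD, n = 2 arrays) was 3.40-fold (SE 0.32, adjusted p = 0.0142 by limma). The Pax9 call was lost when the 4 channels were fitted as separate samples with no replicate block (adjusted p = 0.0921). Without the filter on dim probes no probe of 41168 passed limma's threshold (10666 had an unadjusted p under 0.05), and the adjusted p was 0.117 for Foxn1 and Pax1 and 0.168 for Pax9.

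**Figure D1:**
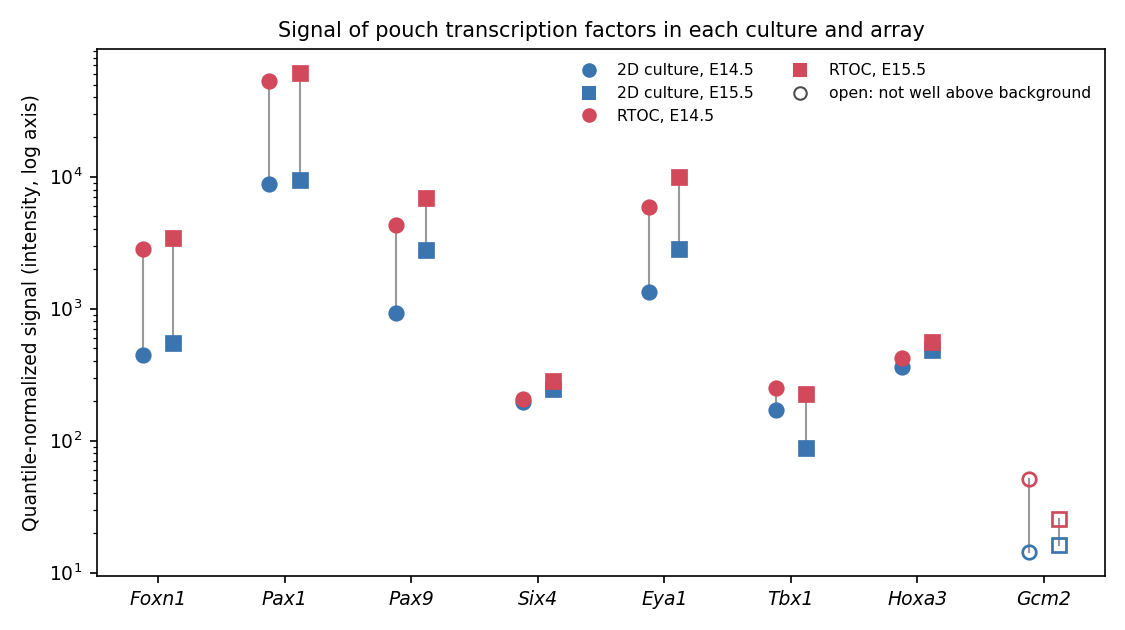
Quantile-normalized signal (log axis) of the brightest probe of each of the 8 genes in 2D culture (blue) and RTOC (red) on the E14.5 array (circles) and the E15.5 array (squares), each point being 1 channel of 1 array, with grey lines joining the cultures of an array. Foxn1 and Pax1 show a mean difference of 6.30-fold with nearly equal gaps on both arrays, the 2D signal of Pax9 differs between arrays (933 and 2796), and the open Gcm2 points are not well above background.

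The other members differed less or not measurably between the cultures. Tbx1 read 172 in 2D and 251 in RTOC at E14.5, and 87.6 in 2D and 224 in RTOC at E15.5. Both RTOC values lay above both 2D values, with log2 ratios of 0.55 and 1.36. The mean of 0.95 ± 0.57 (SD, n = 2 arrays), or 1.93-fold, did not pass the threshold (limma, adjusted p = 0.0676), and its 95% interval of 0.19 to 1.71 leaves room for a difference well above 2-fold. When only probes well above background in all 4 channels were tested, Tbx1 passed (limma, adjusted p = 0.0477), and with normexp background correction and loess its mean log2 ratio was 0.29.

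Six4, a homeobox partner of Eya1, read 194 in 2D and 205 in RTOC at E14.5, and 247 in 2D and 284 in RTOC at E15.5. The cultures overlapped, since the 2D value at E15.5 lay above the RTOC value at E14.5. Its mean log2 ratio was 0.14 ± 0.09 (SD, n = 2 arrays), which did not pass limma's threshold (adjusted p = 0.699, 95% interval -0.49 to 0.77).

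Hoxa3, the upstream Hox gene of the pouch, read 363 in 2D and 422 in RTOC at E14.5, and 490 in 2D and 558 in RTOC at E15.5, and here too the cultures overlapped. The mean log2 ratio was 0.20 ± 0.02 (SD, n = 2 arrays) with an adjusted p of 0.572 by limma and a 95% interval of -0.42 to 0.83. For the second Hoxa3 probe the mean ratio was 0.00 ± 0.02 on the log2 scale (SD over both arrays), and limma gave it an adjusted p of 0.991. Intervals of this width do not show that Six4 and Hoxa3 were equal in the 2 cultures.

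Gcm2, the parathyroid regulator, was not well above background in any of the 4 channels. Its signals were 14.4 and 16.0 in 2D and 51.0 and 25.3 in RTOC at E14.5 and E15.5, and it was not tested. Other parathyroid genes could be read on the same arrays. Pth, which encodes parathyroid hormone, read 2440 in 2D and 89943 in RTOC at E14.5, and 1206 in 2D and 39110 in RTOC at E15.5. Pth thus rose by 5.11 ± 0.13 on the log2 scale (SD, n = 2 arrays), with an adjusted p of 0.00161 by limma. Chga, the gene of the granule protein chromogranin A, rose by 3.76 on the log2 scale (limma, adjusted p = 0.00168). Casr, which encodes the calcium-sensing receptor of the parathyroid, was not well above background in any channel.

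**Figure D2:**
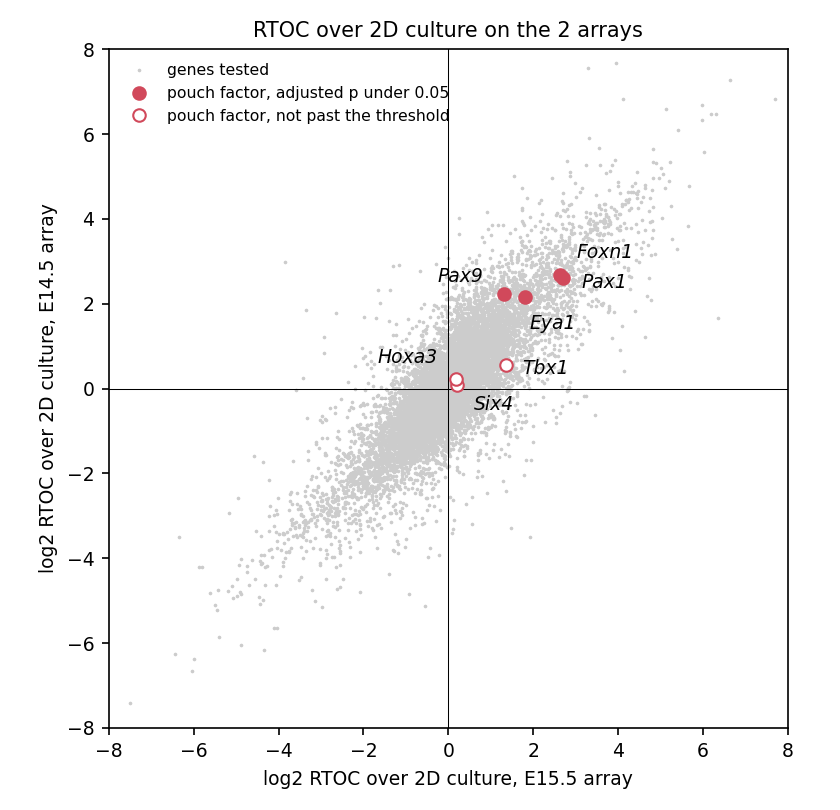
The log2 ratio of RTOC over 2D culture on the E15.5 array (x axis) and the E14.5 array (y axis) for 13497 genes tested (grey) and for the 7 pouch genes tested (red, filled where the adjusted p of limma was under 0.05). Foxn1 and Pax1 lie on nearly the same point (2.63 and 2.68, 2.70 and 2.61), Pax9 and Eya1 lie higher on the E14.5 axis, and Six4 and Hoxa3 lie near 0.

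In the order of the mean ratio of the brightest probes, Pax1 and Foxn1 came first, followed by Eya1, Pax9, Tbx1, Hoxa3 and Six4. With quantile-normalized processed signals Pax1 and Foxn1 did not differ beyond their spread. With normexp and loess Foxn1 had 1.95 and Pax1 2.60, and with normexp and median centring 2.10 and 2.88. The second Pax1 probe had a mean log2 ratio of only 0.98. The 95% intervals of Eya1 (1.33 to 2.63) and Pax9 (0.97 to 2.55) overlapped, as did those of Hoxa3 and Six4. Of all genes tested, 6.19% had a higher mean ratio than Eya1, 7.36% than Pax9, 17.3% than Tbx1, 40.4% than Hoxa3 and 43.3% than Six4. Likeness to Foxn1 was measured as the Euclidean distance between the pairs of log2 ratios on the 2 arrays, over 12072 other genes that were well above background in every channel. The nearest was Pax1 by its brighter probe, at a distance of 0.09, followed by Pithd1, Cck, Tst and Sema6d. A likeness over 2 arrays is a description and carries no test.

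Paralogues from the same families were examined to see which relatives of the members could be measured. Of 33 paralogues, 14 were tested, of which 5 rose, 2 fell and 7 did not pass, with a median log2 ratio of 0.57, and for 18 the brightest probe was not well above background in any channel. All 7 other Pax genes on the list, Pax2 to Pax8, were among these 18, as were Gcm1 and Foxn4. Of the 18, Pax6 had a dimmer probe that was well above background in 1 channel, 2D at E15.5, with a signal of 107, and the other 17 had no such probe. No probe of Pax2 to Pax8 met the filter for testing. Hoxd3 was well above background on only 1 array and was not tested.

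Of the relatives of Six4 and Eya1, 6 of 8 were tested, 4 rose and none fell. Eya4 had the highest ratio of these relatives, with 554 in 2D and 5649 in RTOC at E14.5 and 1791 in 2D and 6950 in RTOC at E15.5 (mean log2 ratio 2.65, adjusted p = 0.00775 by limma). Six5 (1.73) and Six2 (1.13) rose too, Six5 by 0.87 with normexp and loess. Eya2 differed between the arrays, with log2 ratios of 1.62 and 0.19, and did not pass (limma, adjusted p = 0.138), and Eya3 had a mean of -0.40. Dach1, a cofactor that works with Eya1, rose by 1.11.

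Among the T-box genes, 5 of 12 paralogues were tested, of which 1 rose and 2 fell. Tbx18 and Tbx3, both known from mesenchyme, fell by 2.06 and 1.47 on the log2 scale, and both calls were lost with normexp and loess, where Tbx18 had a mean of -0.64 and Tbx3 of -1.22 (limma, adjusted p = 0.193 and 0.105). Tbx21, the T-bet gene of lymphocytes, rose, but it was not well above background in 2D and met the filter through RTOC alone. The difference is therefore given as at least 1.59-fold, set by the lowest signal well above background in the 2D channel. The call of Tbx21 (limma, adjusted p = 0.00383) is not independent of that filter, and the counts of paralogues that rose include it. With normexp and median centring Tbx21 did not pass (adjusted p = 0.0551 by limma).

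Of 25 signals and other regulators of the pouch fixed as a list, 24 were found on the array by name and 19 were tested, of which 6 rose, 3 fell and 10 did not pass, with a median log2 ratio of 0.30. Fgf10, a growth factor of the mesenchyme that acts on epithelium, rose by 3.12, with log2 ratios of 1.82 at E14.5 and 4.41 at E15.5, where its 2D signal was not well above background, and by 1.17 with normexp and loess. Its receptor gene Fgfr2 rose by 2.49, from 448 and 887 in 2D to 2994 and 4193 in RTOC. Cyp26b1, which degrades retinoic acid, rose by 2.83, and Aldh1a2, which makes it, fell by 1.94.

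The LIM homeobox gene Isl1 rose by 1.42 (limma, adjusted p = 0.0367). Gata3, a factor of the parathyroid and of T cells, fell by 1.62. Bmp4, a signal of the ventral pouch, fell by 1.36. With normexp and loess the calls of Isl1 and Bmp4 were lost, and with normexp and median centring those of Gata3, Aldh1a2 and Bmp4. Shh, Sox2, Nkx2-5 and Nkx2-6 were not well above background in any channel.

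The genes known to depend on Foxn1 in thymic epithelium gave a count in 1 direction, with 8 of 8 higher in RTOC and a median log2 ratio of 3.72. They ranged from Cd274 at 2.26 to Ccl25, the thymic chemokine, at 6.96, and their other members were Prss16, Cd83, Psmb11, Kitl, Cxcl12 and Dll4. Dll4, the Notch ligand of the thymic epithelium, read 112 in 2D and 1327 in RTOC at E14.5, and 128 in 2D and 1196 in RTOC at E15.5. Dll4 thus had a mean log2 ratio of 3.40, beside 2.65 for Foxn1 itself, and of 1.70 and 1.95 for Dll4 and Foxn1 with normexp and loess. Cxcl12 did not pass with normexp and median centring (limma, adjusted p = 0.0532). This list rests on the same arrays as Foxn1 and is not independent evidence of a direction.

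**Figure D3:**
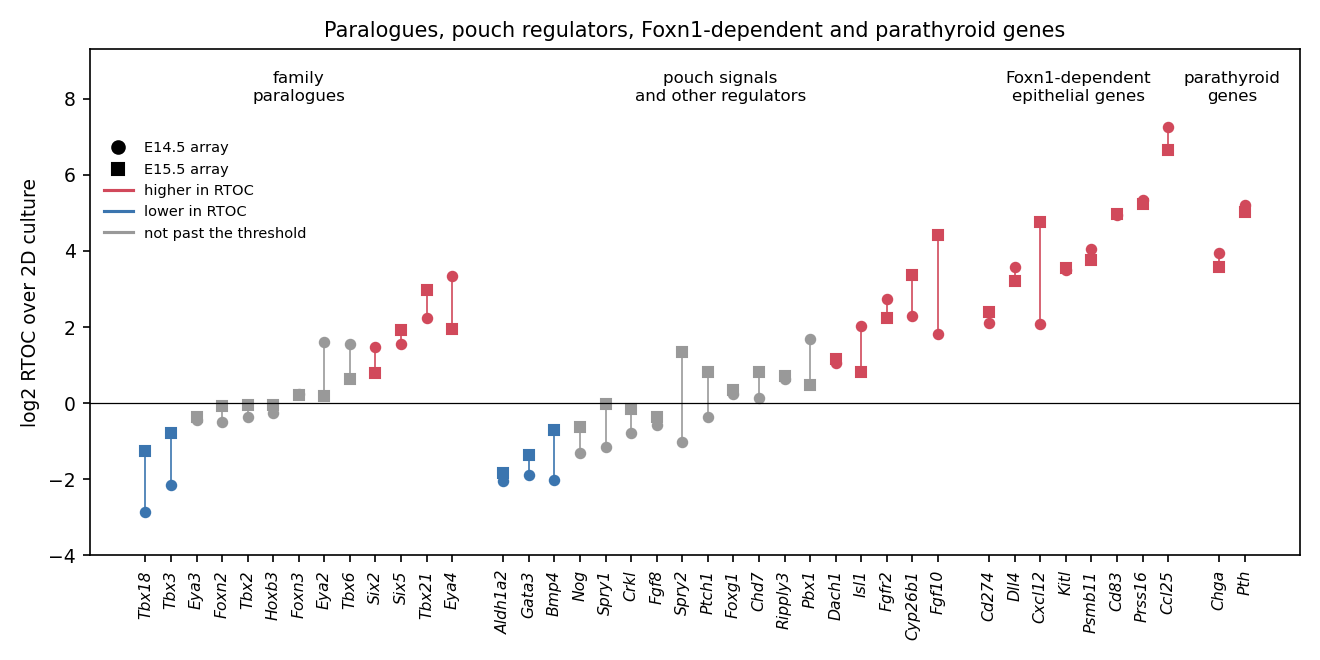
The log2 ratio of RTOC over 2D culture on the E14.5 array (circles) and the E15.5 array (squares) for the tested genes of 4 lists that are reported here, ordered by mean, with red for genes higher in RTOC, blue for lower and grey for those not past limma's threshold. The 8 Foxn1-dependent genes are all above 2 on both arrays, whereas paralogues and pouch regulators fall on both sides of 0.

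Markers of the cell types present moved with the cultures, and their part in the results above was not tested. Of 12 thymic epithelial markers tested, 5 rose and 4 fell. Of these 5, Aire was not well above background in 2D on either array and met the filter through RTOC alone. Its difference is given as at least 1.46-fold, and its call was lost with normexp and loess (limma, adjusted p = 0.0647). Enpep (4.90) and Ly75 (4.47) were highest and Cldn4 (-4.26) and Cldn3 (-3.26) lowest. The summed signal of the 12 was 324015 and 675673 in 2D and 685891 and 772621 in RTOC at E14.5 and E15.5. In 2D at E14.5, Krt8 read 130796 and Krt18 109141 of this sum. Because signals cannot be compared between probes, this sum and those below mostly follow the brightest probes and are not amounts of cells. Epcam, which marks epithelial cells as a whole, had a mean log2 ratio of -0.70 and did not pass (limma, adjusted p = 0.0957). Its signal was lower in RTOC on both arrays, at 7490 and 15041 in 2D and 5158 and 8227 in RTOC.

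Of 11 fibroblast and mural markers 7 fell and 3 rose, with Tagln (-4.33) and Acta2 (-3.00) lowest and Lum (4.55) and Pdgfra (2.84) highest, and their sum was 1003420 and 870044 in 2D and 339885 and 336991 in RTOC. Of 9 endothelial markers 8 were tested and 7 rose, and their sum went from 2167 and 2060 in 2D to 9848 and 15029 in RTOC. Of these 7, Cdh5, Pecam1 and Tie1 were not well above background in 2D on either array and met the filter through RTOC alone, so their differences are given as at least 5.01-fold, 1.42-fold and 1.12-fold, and the calls of Pecam1 and Tie1 were lost with normexp and loess (limma, adjusted p = 0.0689 and 0.206). The highest ratios were those of Cdh5 and Cldn5, and the lowest were Egfl7 (1.28) and Kdr (1.43). Of 13 haematopoietic markers 10 were tested and 5 rose, and the sum of the 13 was 67886 and 56935 in 2D and 168838 and 216715 in RTOC. Most of it was the signal of Lyz2, at 58013 and 48100 in 2D and 123710 and 168098 in RTOC. Adgre1 (3.01) and Cd3g were the highest. Cd3g was not well above background in 2D at E15.5, and its mean of 3.84 became 1.19, not called and below Adgre1, with normexp and loess. The lowest was Itgam (-0.61), and the T cell gene Cd8a was not well above background in any channel.

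The signal of some members also differed between the arrays within a culture, which is a comparison of 1 array with 1 array and has no test. In 2D, Pax9 was 3.0-fold and Eya1 2.13-fold higher at E15.5 than at E14.5, so that 2 of 7 members were at least 2-fold higher, beside 6.83% of 12366 genes well above background in 2D. In RTOC none of the 7 was, beside 2.26% of 13154 genes, and Pax9 and Eya1 were 1.60-fold and 1.67-fold higher. Foxn1 (1.25-fold in 2D and 1.21-fold in RTOC) and Pax1 (1.07-fold and 1.14-fold) differed little. Tbx1 went the other way in 2D, with a log2 difference of -0.97.

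Of the 6 relatives of Six4 and Eya1 measured in every channel, 4 were at least 2-fold higher in 2D at E15.5, among them Eya2 at 3.34-fold, Eya4 at 3.23-fold and Six2 at 2.59-fold, and none in RTOC. The lower ratios of Pax9, Eya2 and Eya4 on the E15.5 array thus went with a higher 2D signal rather than with a lower RTOC signal. Of 11 epithelial markers measured in every channel, 5 were also at least 2-fold higher in 2D at E15.5, among them Krt8 (2.90-fold), Trp63 (2.21-fold) and Epcam (2.01-fold). In RTOC 2 of the 11 were, Cldn3 (2.04-fold) and Cldn4 (2.15-fold). Not all went this way, since in 2D Krt5 differed little (1.01-fold) and Krt14 was lower at E15.5 (0.58-fold). The part of the epithelial markers in the Pax9 and Eya1 values was not tested.

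**Figure D4:**
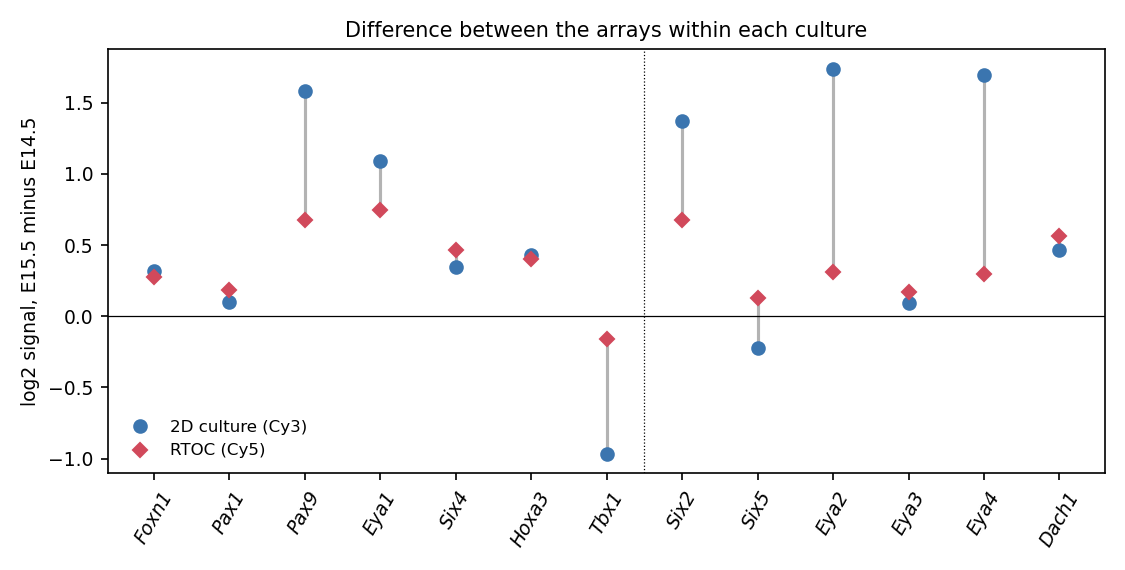
The log2 signal at E15.5 minus that at E14.5 within 2D culture (blue circles) and within RTOC (red diamonds) for the 7 measurable pouch genes (left of the dotted line) and for reported relatives of Six4 and Eya1 and for Dach1 (right), with 1 array per stage. Pax9, Eya1, Six2, Eya2 and Eya4 stand above 1 in 2D and below 1 in RTOC, while Foxn1 and Pax1 stay under 0.4 in both.

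The promoter of Pax1 is shown because Pax1, by its brighter probe, was the gene nearest to Foxn1 on these arrays. The last 120 bases before the Pax1 start in RefSeq, chr2:147364874-147364993 on the plus strand of GRCm38.p6, hold the 4-base core ACGC of the sequence bound by Foxn1 at 2 places, given in capitals as ACGC or as GCGT on the opposite strand.
Pax1 promoter: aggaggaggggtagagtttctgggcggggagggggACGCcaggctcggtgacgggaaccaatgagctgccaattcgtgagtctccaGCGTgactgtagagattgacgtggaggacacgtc
The core is common, since 49.8% of 32851 RefSeq promoters held it on either strand within 250 bases before the start. In this window the core was also found at 3 places for Hoxa3, and at up to 2 for Tbx1 and up to 1 for Six4, depending on the start. Foxn1, Pax9 and Gcm2 held none there, and Eya1 had no entry. Of the members that passed, Pax1 thus held the core and Foxn1 and Pax9 did not. The core is part of a longer consensus sequence that the study searched for. The best match to it around a core had 3 mismatches for Pax1, and 19.75% of promoters had a match with at most 3. For Tbx1, which did not pass, the best match had 1 mismatch, and 0.94% of promoters had a match with at most 1. For Hoxa3 and Six4 it had 4. Such a match is a description of letters and not a site, and the arrays did not measure binding.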

How the data were processed

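Gene expression was measured on 2 two-colour arrays. Per the file headers, the authors' scanner files were made with Feature Extraction 9.1.3.1, whereas the submitters' processing notes name 11.5.1.1. The deposited files hold for each spot a background-subtracted, dye-normalized processed signal and a mean signal and local background, all as intensity, and a log10 ratio of Cy5 over Cy3. A deposited table of series values equals the log10 ratio of the processed signals (largest difference 5e-10; medians -0.0191 at E14.5 and -0.0741 at E15.5). The authors' p-values of single spots were not used. The methods state quantile normalization among arrays. The RNA kit differs between labels (TRIzol) and methods (a column kit).

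Control spots and outlier-flagged spots (5 at E14.5, 1 at E15.5) were dropped. The processed signals of the 4 channels were then quantile normalized, and log2 of Cy5 (RTOC) over Cy3 (2D) was averaged over the spots of a probe. Of 41174 probes, 22944 were named by accession, 6664 by symbol and 3108 by older symbol in a RefSeq table of GRCm38.p6. The other 8458 were matched to no gene, so they could enter the tests of probes but no count of genes. Tests covered 23685 probes, each well above background in at least 1 channel on both arrays, with limma 3.58.1 in R 4.3.3 (intercept, eBayes, two-sided, Benjamini-Hochberg over all probes, threshold 0.05). Because only 1 residual degree of freedom remains, limma leans on the variance pooled across probes, and an exact sign-flip test of 2 arrays cannot give a p below 0.5. A gene with several probes is given by the brightest. Where a probe was not well above background in a culture on both arrays, only a bound is given.

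In data simulated for RTOC over 2D (23685 probes, 200 changed), 96.4% of changes of 4 on the log2 scale were recovered, 34.8% of changes of 2 and 0% of changes of 1, and 11.8% of calls were false. Far fewer probes were changed there than the 6820 called in the data. The Benjamini-Hochberg cutoff therefore differs, and these shares do not give the recovery or the false calls of the results above. The number of arrays limits the precision. Well above background were 53.1% to 60.9% of probes per channel.

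The members and the lists were chosen with earlier results of these data known. Named are all members with every probe; list genes that passed the threshold or were not measured; from each marker list the 2 highest and 2 lowest ratios; and the 5 genes nearest to Foxn1. Some genes of the lists enter the counts but are not reported here by name. Other genes named were chosen after their values were seen.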

Additional observations from a re-analysis of the deposited data

How the results depend on the processing

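The mean log2 ratio of no tested member changed sign under the alternatives tried. Some list genes that did not pass and lay near 0 did change sign. Ptch1 went from 0.23 to -0.02 with normexp and loess, and Tbx2 from -0.20 to 0.05 with normexp and median centring. Over all probes limma called 6820, against 3709 with normexp and loess, 2904 with normexp and median centring, 4033 with no replicate block, and 0 of 41168 without the filter on dim probes (10666 at an unadjusted p under 0.05). The methods name a Student's t-test in general but no test for the arrays. A t-test of the 2 log2 ratios of each probe, run here, called 3539 unadjusted and 0 after Benjamini-Hochberg adjustment. Of the 8 pouch genes limma called 4, against 0 without the filter (4 unadjusted), and this t-test called 2 unadjusted and 0 adjusted. Of the other pouch genes, which are paralogues, regulators, Foxn1-dependent and parathyroid genes, 26 changed counts went to 17 with no replicate block, 14 by the unadjusted t-test, 0 after its adjustment and 0 without the filter. With no replicate block 3 members passed, Pax9 being lost. With normexp and median centring together the median log2 ratio of all probes was 0.12, and the higher share of calls went from 52.9% to 76.4%. It was 46.8% when all 4 channels had to be well above background and 46.5% by the unadjusted t-test. Over 12 alternatives that keep both arrays the mean log2 ratio lay between 1.95 and 2.65 for Foxn1, 1.82 and 2.88 for Pax1, 1.40 and 1.98 for Eya1, 1.5 and 1.77 for Pax9 and 0.29 and 1.0 for Tbx1. The cause of these differences was not tested. With 1 array left there is a value but no test, from 2.63 to 2.68 for Foxn1, 2.61 to 2.70 for Pax1, 1.81 to 2.15 for Eya1, 1.31 to 2.22 for Pax9 and 0.55 to 1.36 for Tbx1.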
